A study of Mus musculus with 4 samples.

Results

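Cluster 40 of the mouse posterior hindbrain atlas, labelled Ebf2/Ankfn1 by the study, comprised the nuclei that passed the study's filter and that its table of nuclei places in that cluster. There were 170 such nuclei among 12539 neurons (1.36%) and 39461 kept nuclei, and the cluster ranked 8 in size among 134 neuronal clusters. In the study, 4 libraries of single nuclei from hindbrain tissue holding the area postrema and the nucleus of the solitary tract were sequenced, 2 for each of the control and AgRP-Gq;POMC-Gi genotypes, and they gave 29 and 56 nuclei of the cluster in control replicates 1 and 2 and 33 and 52 in AgRP-Gq;POMC-Gi replicates 1 and 2. The labels call the control genotype WT, while the methods describe it as carrying the 2 receptor alleles hM3DGq fl/- and hM4DGi fl/- without either recombinase. The AgRP-Gq;POMC-Gi mice carried the same 2 alleles together with the recombinase alleles AgRP-IRES-Cre+/- and POMC-Dre+/-, and in them the activating receptor hM3DGq follows Cre in AgRP cells and the inhibitory receptor hM4DGi follows Dre in POMC cells, both from the Rosa26 locus. All mice, 12 to 20 weeks old, of both sexes and on a C57BL/6 background, received CNO, the ligand of both receptors, at 3 mg per kg with tissue collected 1 h later, and had no food meanwhile, and the comparison asks how hindbrain neurons respond when AgRP cells are driven and POMC cells silenced together. The methods give 2 mice per group and pooling of samples within a condition, and not which mice entered which library, so the spread between libraries may be partly technical.

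EBF proteins (early B cell factors) are DNA-binding transcription factors that act in the differentiation of B cells, fat cells and many neurons, and in the nervous system they are best known for roles in neurons that leave the progenitor zone and take on a specific fate. Ankfn1 encodes a protein with ankyrin repeats and a fibronectin type III domain. In the dorsal hindbrain and spinal cord, excitatory neurons that use the vesicular glutamate transporter Slc17a6 (VGLUT2) often carry the transcription factors Tlx3 and Lmx1b, whereas inhibitory neurons carry Pax2 and use the vesicular transporter Slc32a1 with the synthetic enzymes Gad1 and Gad2 or the glycine transporter Slc6a5.

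A unique molecular identifier (UMI) marks 1 captured RNA molecule, and a level is given in CPM, a gene's UMIs scaled to a library total of 1e6 over the summed nuclei. Summed UMIs of the cluster were 286895 and 517825 for control and 241934 and 460979 for AgRP-Gq;POMC-Gi, replicate 1 first. A nucleus of the cluster had a median of 7983 UMIs and 3427 genes, against 8713 UMIs and 3567 genes in the other neurons and 2460 UMIs in oligodendrocytes. No barcode of the cluster was shared between libraries within the cluster, and 2 of its barcodes also occurred among kept nuclei of another library. Xist, the RNA that coats the silenced X chromosome, was at 732 and 173.8 CPM in control replicates 1 and 2, at 554 CPM in AgRP-Gq;POMC-Gi replicate 1 and at 0 in AgRP-Gq;POMC-Gi replicate 2, so the latter library stood apart. Ttr, the main transcript of the choroid plexus, gave 571 UMIs in control replicate 2 and 274 in AgRP-Gq;POMC-Gi replicate 2 but 0 and 1 in control replicate 1 and AgRP-Gq;POMC-Gi replicate 1. The part of either signal in the differences between groups was not tested.

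The cluster was neuronal and glutamatergic by its defining markers. Slc17a6 was at 125.5 and 112.0 CPM in control replicates 1 and 2 and at 144.7 and 143.2 CPM in AgRP-Gq;POMC-Gi replicates 1 and 2, and 103 of 170 nuclei had a UMI of it (60.6%, exact binomial 95% interval 52.8 to 68.0%, counting error only), against 35.4% of other neurons and 3.49% of the shallower oligodendrocytes. All 4 libraries lay above the 75.3 CPM of other neurons. Slc17a7 and Slc17a8, the other vesicular glutamate transporters, had no UMI in 170 nuclei, and a count of 0 (floor of 3 counts) allows up to 1.76% of nuclei with a UMI, which does not limit the share that expresses them. Inhibitory genes were low: Slc32a1 was at 4.43 ± 3.45 CPM (SD, n = 4 libraries) against 27.4 in other neurons, Gad1 at 2.44 ± 1.91 against 51.2 and Slc6a5 at 1.90 ± 1.44 against 84.2. Gad2 was the exception among them, at 38.0 ± 16.4 CPM with a UMI in 31 nuclei (18.2%), against 96.1 CPM and 38.8% in other neurons and 3.03% in oligodendrocytes. The log2 ratio of Slc17a6 to Slc32a1 (each with a pseudocount of 1 CPM) was 4.61 and ranged from 3.70 to 7.19 over the libraries. With every nucleus thinned to 2000 UMIs, which left 167 nuclei of the cluster, Slc17a6 was seen in 25.7% and Slc32a1 in 2.40% of them. UMIs of both genes occurred together in 3 nuclei. The neuronal markers Rbfox3, Snap25, Syt1, Map2 and Meg3 were each present in 90% or more of the nuclei. Glial markers were absent in some cases and above other neurons in others. Tmem119 and Cspg4 had no UMI, Pdgfra was at 0.48 CPM and Gfap at 1.52 CPM. Slc1a2 was at 81.3 CPM against 48.9 in other neurons, and P2ry12 at 154 against 125 in other neurons, with a UMI in 54.7% of nuclei against 58.7%. P2ry12, which is also part of the microglial sum below, overlaps Med12l over 46600 bases on the opposite strand. Med12l was at 288 CPM in the cluster against 231 CPM in other neurons, so the P2ry12 count may not be microglial RNA. The 6 oligodendrocyte markers summed to 161 to 259 CPM in the 4 libraries of the cluster, against 146 to 310.0 CPM in those of other neurons. The astrocyte markers summed to 69.4 to 129 CPM against 45.8 to 83.8 CPM, and the microglial markers to 118 to 252 CPM against 136 to 151 CPM. The part of glial RNA in the results was not tested.

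Both genes of the label were high in the cluster in every library. Ebf2 (ENSMUSG00000022053, chromosome 14, 67233292 to 67430918 on the plus strand of GRCm38) was at 589 and 396 CPM in control replicates 1 and 2 and at 583 and 393 CPM in AgRP-Gq;POMC-Gi replicates 1 and 2. Both libraries numbered 1 were the higher ones, and the 2 groups overlapped. Ankfn1 (ENSMUSG00000047773, chromosome 11, 89390223 to 89777653 on the minus strand) was at 533 and 487 CPM in the controls and at 566 and 427 CPM with AgRP-Gq;POMC-Gi. In other neurons the means were 64.8 CPM for Ebf2 and 89.0 CPM for Ankfn1, so the cluster was 7.57-fold and 5.65-fold higher. Since clusters were built from expression, such differences from other neurons describe the cluster and were not tested. A UMI of Ebf2 was found in 145 nuclei (85.3%) and one of Ankfn1 in 136 (80.0%), against 15.5% and 24.3% of other neurons, and 122 nuclei (71.8%, exact binomial interval 64.4 to 78.4%) held both. Neither gene had a UMI in 11 nuclei. Thinned to equal depth, the shares were 53.9% against 8.39% for Ebf2 and 52.7% against 12.4% for Ankfn1. The pair was nevertheless no private mark of the cluster. Among all neurons 823 nuclei held UMIs of both genes, and 14.8% of these nuclei were in cluster 40.

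In all, 18 genes were at least 4-fold higher than in other neurons in each of the 4 libraries and were detected in 25% or more of the nuclei, which is 0.358% of the 5021 genes with that detection. That count was 8 when only the other 68 clusters with mostly Slc17a6 were the reference, and 11 when each nucleus was given equal weight. Of the 18, 11 encode proteins and 7 are non-coding or antisense transcripts. Pamr1, which encodes a secreted protease-like protein, had the highest ratio to other neurons (15.3-fold, 64.5 ± 18.1 against 4.21 CPM, SD over 4 libraries). It was at 87.1 and 46.3 CPM in the control replicates and at 70.3 and 54.2 CPM in the AgRP-Gq;POMC-Gi replicates. Ror1, a receptor for Wnt5a, was 10.2-fold higher at 182 ± 50.1 CPM, with 199, 129, 244 and 156 CPM in the 4 libraries in the same order. Adam33, a membrane metalloprotease, was 9.51-fold higher and had the narrowest spread of those at the top, with 76.7 and 77.2 CPM in the controls and 86.8 and 84.6 CPM in the other group. For Adam33 both AgRP-Gq;POMC-Gi libraries lay above both control libraries, as for 14.9% of all genes tested (log2 fold change 0.18, SE 0.27, edgeR adjusted p 0.99).

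The remaining protein-coding genes of the group belong to transcription, intracellular signalling and adhesion. Bnc2, a zinc finger protein, was 6.73-fold higher at 157.5 ± 15.4 CPM, and Gmnc, a geminin-related protein known from multiciliated cells, was 8.70-fold higher at 83.9 ± 19.0 CPM. Arhgap6, a GTPase-activating protein, reached 650 ± 107 CPM against 88.9 in other neurons (7.31-fold) and was present in 76.5% of nuclei. Ptprk, a receptor-type tyrosine phosphatase, was the highest and most even of the group, at 739 and 718 CPM in the control libraries and 761 and 770.1 CPM with AgRP-Gq;POMC-Gi (4.40-fold), while oligodendrocytes were higher still at 1426 CPM. Ccdc88c, which binds Dishevelled in Wnt signalling, was 6.74-fold, Igsf11, an adhesion molecule, 5.91-fold (58.6 CPM, against 429 in oligodendrocytes) and Rgs12, a regulator of G protein signalling, 5.48-fold higher. None of the 18 was highest in cluster 40 of the 133 clusters with at least 20 nuclei. Their ranks ran from 2 to 8, with 6 of them at rank 2. Just inside the 4-fold limit lay Gm15261, whose lowest library was at 4.15-fold, and 1700120O09Rik at 4.18-fold. Just outside it lay Syt10 at 3.998-fold and Ankfn1 itself at 3.86-fold. Over all genes, 0.93% of 11501 genes detected in 5% or more of the nuclei were at least 2-fold higher in every library and 0.643% at least 2-fold lower.

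**Figure D1:**
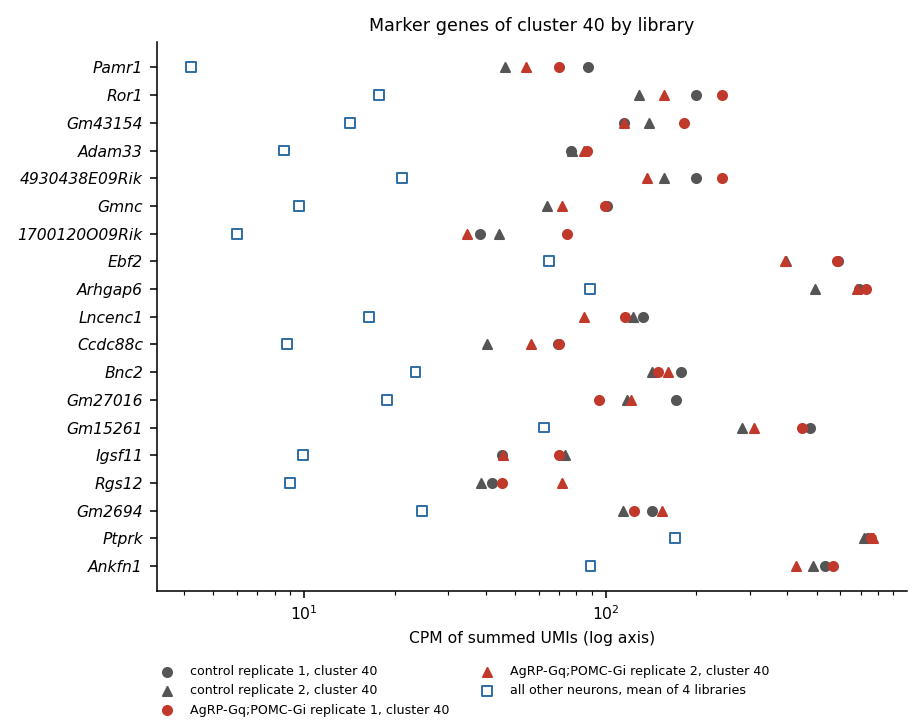
Level of each marker gene (horizontal log axis, CPM of summed UMIs) in cluster 40 of each of the 4 libraries (filled symbols, control grey and AgRP-Gq;POMC-Gi red, circles replicate 1 and triangles replicate 2) and the mean over 4 libraries of all other neurons (open squares). Every filled symbol lies to the right of its square, which the 4-fold limit used to choose the genes fixes for all but Ankfn1. The 2 groups interleave for Ebf2 and for Ankfn1.

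Several of these markers share a stretch of genome, so they are fewer observations than genes. The antisense transcript 4930438E09Rik (184 ± 47.6 CPM, 8.71-fold, in 66.5% of nuclei) lies wholly within Ebf2 on the opposite strand, and 1700120O09Rik (48.0 ± 18.1 CPM) overlaps both of them. Gm15261 (379.5 ± 96.7 CPM, 6.07-fold) lies within Arhgap6 on the opposite strand, and Gm27016 and Gm2694 (126 and 134 CPM) overlap each other over 19408 bases on chromosome 8, and Gm2694 also overlaps Cbln1 (24.8 against 4.97 CPM in other neurons). In all, 7 of the 18 overlap another of the 18. Whether the counting used the strand of the reads is not given in the sources used here, and reads from overlapping partners may therefore not be separable. Across the 133 clusters the level of Ebf2 followed most closely that of 4930438E09Rik (Spearman correlation 0.86), Gm6878 (0.80) and 1700120O09Rik (0.77), which all overlap Ebf2, then Ebf3 on chromosome 7 (0.72) and Gm10578 (0.69), which overlaps Ebf3. For Ankfn1 the closest genes were Arhgap6 (0.60), Ly6h (0.60), Dapk1 (0.56), Cfap54 (0.56) and Grin2b (0.56). These are descriptions over clusters that share the same 4 libraries.

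The sequence before the start of the marker and EBF genes was searched for the core CCCNNGGG of the EBF recognition palindrome and for the full palindrome, which has a T before the core and an A after it. Both read the same on the 2 strands, and every full match holds a core match. RefSeq start sites on GRCm38.p6 were found for 12 of 22 genes asked, with 17 starts, and the window was the 250 bases before each start. The full palindrome occurred at none of the 17 and at 0.779% of all 32851 starts. The core occurred at 4 of them, belonging to Ebf3, Ptprk and Rgs12, and at 11.8% of all starts. The windows of 2 genes are shown, that of Ebf3 because its pattern over clusters was the closest to Ebf2 outside the Ebf2 locus, and that of Ptprk because it was the highest and most even marker. Capitals mark the core, 21 bases before the start of Ebf3 (chr7:137314446-137314695, minus strand) and 43 bases before that of Ptprk (chr10:28074570-28074819, plus strand), counted from the first base of the match. A match of these letters describes the window and does not show binding.
Ebf3: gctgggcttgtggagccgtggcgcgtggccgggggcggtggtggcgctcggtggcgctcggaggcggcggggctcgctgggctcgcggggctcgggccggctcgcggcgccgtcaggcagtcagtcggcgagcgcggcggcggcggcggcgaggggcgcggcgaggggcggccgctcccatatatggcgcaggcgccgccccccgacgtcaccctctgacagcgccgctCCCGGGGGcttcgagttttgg
Ptprk: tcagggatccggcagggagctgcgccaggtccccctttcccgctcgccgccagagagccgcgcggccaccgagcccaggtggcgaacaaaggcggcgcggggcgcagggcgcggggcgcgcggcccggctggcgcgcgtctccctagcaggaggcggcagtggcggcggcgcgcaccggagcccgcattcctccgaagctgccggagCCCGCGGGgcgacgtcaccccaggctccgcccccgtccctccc

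Of the 4 EBF genes, 3 were abundant in the cluster and 1 was nearly absent. Ebf1 was at 1433 and 801 CPM in control replicates 1 and 2 and at 1004 and 820.0 CPM in AgRP-Gq;POMC-Gi replicates 1 and 2. Ebf3 was at 411 and 349.5 CPM in the controls and at 471 and 351 CPM in the other group. For both genes, as for Ebf2, the libraries numbered 1 were higher than those numbered 2 in each group. Ebf1 was 1.94-fold higher than in other neurons (1.17-fold to 2.87-fold by library) and ranked 23 among clusters, whereas Ebf3 was 4.24-fold higher and ranked 11. Ebf4 was at 6.01 ± 2.58 CPM against 25.8 in other neurons, with a UMI in 5.88% of nuclei against 20.8%. EBF genes were thus detected broadly within the cluster, with UMIs of Ebf1, Ebf2 and Ebf3 in 83.5%, 85.3% and 86.5% of nuclei and at most 1.43% of oligodendrocytes for Ebf1 and 0.47% for Ebf3.

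In the atlas, 14 clusters carry Ebf2 or Ankfn1 in their label, and cluster 40 sat in the middle of them. Its Ebf2 level was below that of 5 clusters whose libraries did not overlap with it, from 63 Ebf2/Th (965 ± 154 CPM) to 129 Bnc2/Ebf2 (2062 ± 460 CPM). Clusters 105 Ebf2/Calb1 (719 ± 259 CPM) and 160 Ebf2/Ism1 (671 ± 135 CPM) came next, and their library ranges overlapped with that of cluster 40. Cluster 51 Bnc2/Ebf2 (251 ± 106 CPM) lay below it, and its highest library (334 CPM) was under the lowest of cluster 40 (393 CPM). The order for Ankfn1 was different. Its level of 503 ± 60.3 CPM in cluster 40 lay between those of 146 Rxfp1/Ebf2 (567 ± 158) and 129 Bnc2/Ebf2 (477 ± 70.4), both overlapping with it, while 117 Ebf2/Nmu (862.5 ± 197) and 148 Ccdc172/Ebf2 (921 ± 218) were higher without overlap and 63 Ebf2/Th (281 ± 66.2) lower without overlap. For Ebf1, 6 of the 14 clusters stood apart above cluster 40. They held 3021 to 6755 CPM of Ebf1, none of their libraries being under 2379 CPM, while the highest library of cluster 40 was at 1433 CPM. Clusters 77 Ankfn1/Tcerg1l and 178 Npy/Ankfn1 held Ankfn1 with little Ebf2 (18.8 and 26.8 CPM).

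**Figure D2:**
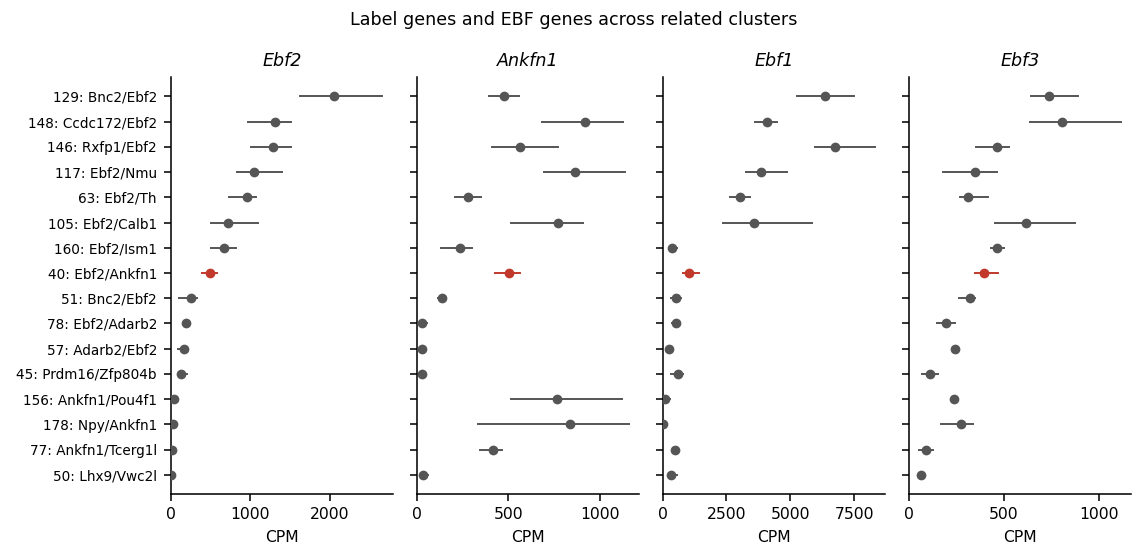
Mean level (points, CPM) and range over the 4 libraries (lines) of Ebf2, Ankfn1, Ebf1 and Ebf3 in the 14 clusters whose label holds Ebf2 or Ankfn1 and in the clusters 50 and 45 most like cluster 40, ordered by Ebf2, with cluster 40 in red. Cluster 40 is at place 8 of 16 for Ebf2 at 490.1 CPM and at place 7 for Ankfn1 at 503 CPM, and its Ebf1 level of 1015 CPM lies well under the 3021 CPM or more of the 6 clusters highest in Ebf1.

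By the rank correlation of levels over 13941 genes, the clusters most like cluster 40 were 51 Bnc2/Ebf2 (Spearman correlation 0.96), 50 Lhx9/Vwc2l (0.94) and 45 Prdm16/Zfp804b (0.94), with 155, 156 and 161 nuclei. Cluster 51 shared Slc17a6 (138 CPM), Tlx3 (30.8 CPM), Lmx1b (52.5 CPM) and Ebf3 (321 CPM) with cluster 40. The genes with the largest ratio over cluster 51 that did not overlap between any of the libraries were Ror1 (182 ± 50.1 against 31.0 ± 9.23 CPM), Gm43154 (138 against 24.9), Tmem132c (171 against 31.7), Il1rapl2 (499 ± 100.98 against 98.9 ± 51.4), Cpne9 (85.3 against 17.1), Adamtsl1 (186 against 39.9), Grik1 (301 against 66.6) and Calb1 (47.8 against 10.8). Il1rapl2 encodes a synaptic adhesion protein of the interleukin 1 receptor family, Grik1 a kainate receptor subunit and Calb1 the calcium buffer calbindin. On the other side, cluster 51 was higher in Gpc5 (361 ± 53.2 against 24.0 ± 11.6 CPM), Nfib (321 ± 60.1 against 39.5 ± 10.0 CPM), Csgalnact1 (149 against 16.8), Pld5 (227 against 27.4) and Sox5 (71.9 against 15.3). Nfib is a transcription factor of the nuclear factor I family, and it was present in 73.5% of nuclei of cluster 51 and 16.5% of cluster 40. Against cluster 50 the largest ratio was that of Ebf2 itself, at 490.1 against 2.34 CPM, while Lhx9, a LIM homeodomain factor, was at 40.3 ± 10.9 CPM there and without a UMI in cluster 40. Against cluster 45, Cpne7 (55.2 ± 11.8 CPM) and Gm29771 (51.1 ± 7.98 CPM) stood out with no UMI on the other side, and Prdm16 was at 8.61 CPM in cluster 40 against 211 CPM.

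The genes lowest in cluster 40 relative to other neurons included inhibitory identity genes. Among genes with at least 50 CPM in other neurons and lower in every library, the 10 lowest were Gm20713 (3.89 ± 3.17 against 229.5 CPM), the heparan sulphate proteoglycan Gpc5 (24.0 ± 11.6 against 944 CPM), D130009I18Rik (1.35 against 78.4 CPM), the glycine transporter Slc6a5, the inhibitory lineage factor Pax2 (1.90 ± 1.44 against 61.1 CPM), the potassium channel Kcnh8 (2.99 ± 2.03 against 73.3 CPM), the orexin receptor Hcrtr2 (2.05 ± 2.38 against 52.0 CPM), Fbxl7 (5.30 against 108 CPM), Plcl1 (14.6 ± 7.44 against 262 CPM) and the GABA-synthesising enzyme Gad1. Gpc5 was present in 10.6% of nuclei against 50.5% of other neurons, and Hcrtr2 in 1.76% against 21.7%. Gm20713 lies wholly within Gpc5 on the opposite strand, so Gm20713 and Gpc5 may not be separate observations.

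Of 84 hindbrain lineage transcription factors listed, 83 could be counted. Of these, 24 were detected in 5% or more of the nuclei and 31 had none. Tlx3, which specifies glutamatergic neurons in dorsal hindbrain, was at 45.3 and 30.9 CPM in the controls and at 37.2 and 21.7 CPM with AgRP-Gq;POMC-Gi, 8.66-fold above other neurons, in 22.4% of nuclei against 3.52%. Lmx1b, its frequent partner, was at 87.1 and 50.2 CPM and at 70.3 and 39.0 CPM in the same order (3.98-fold). These were the 2 factors at least 2-fold higher in every library. Rora, a nuclear receptor, was the most abundant factor, at 2326 ± 106 CPM against 1205, and Bcl11a stood at 224 ± 68.7 CPM against 103. The 4 factors at least 2-fold lower in every library detected in 5% or more of nuclei were Pbx3 (58.0 ± 16.5 against 319.5 CPM), Sox5 (15.3 ± 6.88 against 63.0 CPM), Nfib (39.5 ± 10.0 against 106 CPM) and Meis2 (59.6 ± 59.9 against 356.5 CPM). Zfhx3 was at 166 ± 60.4 against 489 CPM and reached 0.505-fold in its highest library. The factors without a UMI in 170 nuclei included Atoh1, Barhl1, Lhx9, Phox2a, Pax8, Ptf1a, Gata2, Gata3, En1 and Isl1. Among 30 Hox genes, which record position along the body axis, 9 were detected in 5% or more of nuclei, namely Hoxa3, Hoxa5, Hoxb2, Hoxb3, Hoxb4, Hoxb5, Hoxc4, Hoxd3 and Hoxd4. They were thus of paralog groups 2 to 5. The highest were Hoxb3 (61.3 ± 4.14 CPM) and Hoxb4 (49.8 ± 5.47 CPM, 1.86-fold), and none was at least 2-fold from other neurons in every library.

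Guidance and adhesion genes differed from other neurons in both directions. A pair of semaphorins, which guide axons, were high in all 4 libraries. Sema3e was at 240.5 and 282 CPM in the controls and at 227 and 319 CPM with AgRP-Gq;POMC-Gi (4.08-fold, 71.8% of nuclei). Sema5a was at 401 and 392.02 CPM and at 508 and 416.5 CPM (3.87-fold, 87.1% of nuclei against 34.5%). They were the only 2 of 31 guidance genes detected in 5% or more of nuclei that were at least 2-fold higher in every library. The netrin receptors Dcc and Unc5d were low, Dcc at 479 ± 134 against 1311 CPM and present in 35.3% of nuclei against 83.9%, and Unc5d at 161 ± 50.6 against 653 CPM. Of 21 cadherins, Cdh8 alone was at least 2-fold higher in every library (769 ± 102 against 294 CPM, with a UMI in 153 nuclei). Cdh18 was the most abundant cadherin at 4294 ± 803 CPM against 1893, Cdh6 was at 237 ± 62.8 against 92.9 CPM, and Pcdh9 lay below other neurons at 2578 ± 298 against 4635 CPM.

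Receptor and channel genes were compared by the sums of their levels and gene by gene. The 24 GABA and glycine receptor genes summed to 5558 to 5902 CPM by library against 3888 to 4044 CPM in other neurons, and the 45 potassium and HCN channel genes to 9338 to 11666 against 13324 to 13518 CPM. The sums of the 26 sodium and calcium channel genes overlapped, at 6476 to 6589 against 6266 to 6512 CPM. Of 17 GABA and glycine receptor subunits detected in 5% or more of nuclei only Gabrg3 was at least 2-fold higher in every library, at 1893 and 2072 CPM in the controls and at 1885 and 2030.5 CPM with AgRP-Gq;POMC-Gi, against 785 CPM in other neurons. Most of the gap in the sums of these receptor genes was that of Gabrg3. Gabra5, an extrasynaptic GABA receptor subunit, was at 140 ± 24.6 against 70.4 CPM and Gabrb1 at 424 ± 45.4 against 630 CPM. Of 22 glutamate receptor genes none was at least 2-fold higher in every library, and Grik3, a kainate receptor subunit, was at least 2-fold lower in each (8.86 ± 8.15 against 77.1 CPM). Kcnd3, which carries A-type potassium current, was 2.74-fold higher at 343.5 ± 41.0 CPM and was the 1 of 38 potassium and HCN channel genes at least 2-fold higher in every library, while Kcnmb2, an auxiliary subunit of large-conductance channels, was at 49.0 ± 19.3 against 174 CPM. Among sodium and calcium channels, the alpha2delta subunits went opposite ways, with Cacna2d1 at 842 ± 91.5 against 502 CPM and Cacna2d3 at 79.2 ± 30.7 against 532 CPM. Of the calcium-binding proteins, Necab2 (43.6 ± 4.38 against 15.8 CPM) and Hpca (32.7 ± 3.66 against 12.5 CPM) were at least 2-fold higher in each library.

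Of 43 neuropeptide genes, 14 had no UMI and 11 were detected in 5% or more of nuclei. Among these 11, none was at least 2-fold lower than other neurons in every library, and only Cck was at least 2-fold higher, at 48.8 and 46.3 CPM in the controls and at 37.2 and 56.4 CPM with AgRP-Gq;POMC-Gi, against 11.8 CPM in other neurons. Cck encodes cholecystokinin, and it was present in 53 nuclei (31.2%) against 7.86% of other neurons and 2.35% of oligodendrocytes. Adcyap1, which encodes PACAP, was at 25.5 ± 9.19 against 12.5 CPM. Of 58 receptors of feeding and hypothalamic signals, 21 were detected in 5% or more of nuclei, and none of these was at least 2-fold higher or lower in every library. No UMI was seen for 19 of the 58, among them the melanocortin receptors Mc3r and Mc4r, through which AgRP and POMC products act, and Glp1r, Gfral and Calcr. After the mineralocorticoid receptor Nr3c2 (300.7 CPM) the most abundant was the mu opioid receptor Oprm1, at 209 and 224 CPM in the controls and at 182 and 215 CPM with AgRP-Gq;POMC-Gi (1.98-fold, 65.3% of nuclei). Its lowest library was 1.66-fold above other neurons. Lepr, the leptin receptor, was at 11.8 ± 6.85 CPM against 17.8. Of 44 amine and acetylcholine receptors, 16 were detected in 5% or more of nuclei. Among these 16, Htr2c was highest at 814 ± 94.96 CPM against 734, and Htr1f (25.99 ± 15.4 against 118 CPM), Htr7 (22.2 against 65.0 CPM) and Adra1a (11.6 against 42.9 CPM) were at least 2-fold lower in every library.

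**Figure D3:**
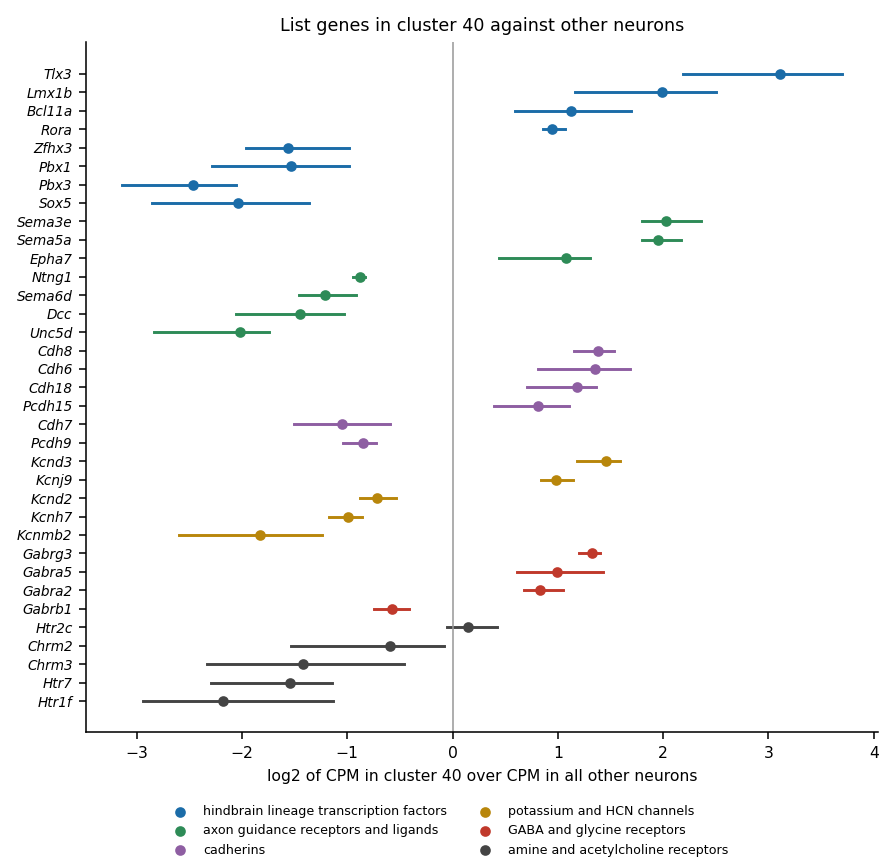
Ratio of the level in cluster 40 to that in all other neurons (horizontal axis, log2 scale, 0 means equal) for genes of 6 lists, picked after their values were seen, with the ratio of the 4-library means as points and the lowest and highest library as lines. Tlx3 lies farthest to the right at 8.66-fold, the lines of Sema3e, Sema5a, Cdh8, Kcnd3 and Gabrg3 stay above 1 on the log2 scale, and that of Htr2c crosses 0.

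Variation between nuclei of the cluster was measured at equal depth. After each nucleus was thinned to 2000 UMIs, the variance over mean of UMIs was computed in each library for 3596 genes, and its median over genes was 1.04, where pure counting noise has 1. For genes that vary beyond counting noise this ratio tends to rise with the level, and it was not adjusted for level, so abundant genes are favoured. The 15 highest were Kcnip4 (7.20), Gm32647 (6.75), Pcdh9 (6.74), Dcc (6.06), Cntn5 (5.01), Nrg1 (4.20), Ebf1 (3.91), Sgcd (3.63), Tenm2 (3.58), Unc5d (3.38), Gpc6 (2.91), Arhgap6 (2.89), Trpm3 (2.89), Nrxn3 (2.85) and Grin2a (2.73). Kcnip4 is a subunit of A-type potassium channels, and Pcdh9, Cntn5, Tenm2 and Nrxn3 are cell adhesion molecules. Ebf1 and Arhgap6, both higher than in other neurons, were thus themselves uneven within the cluster. The levels of the 15 genes ran from 161 CPM (Unc5d) to 2578 CPM (Pcdh9). Gm32647 was concentrated in few nuclei, with 458 UMIs in 34 nuclei of which the 3 highest held 34.9%. Those 34 nuclei were not the ones without label genes, since 27 of them had a UMI of Ebf2 and 26 one of Ankfn1. The range over libraries was wide for Unc5d (0.882 to 10.3) and Pcdh9 (2.58 to 12.3) and narrow for Nrxn3 (2.72 to 2.98) and Arhgap6 (2.53 to 3.15). Over the 167 thinned nuclei, with library means removed, the highest correlation among the 105 pairs of these genes was that of Dcc with Grin2a (Pearson r 0.42), and the lowest that of Sgcd with Arhgap6 (-0.32).

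**Figure D4:**
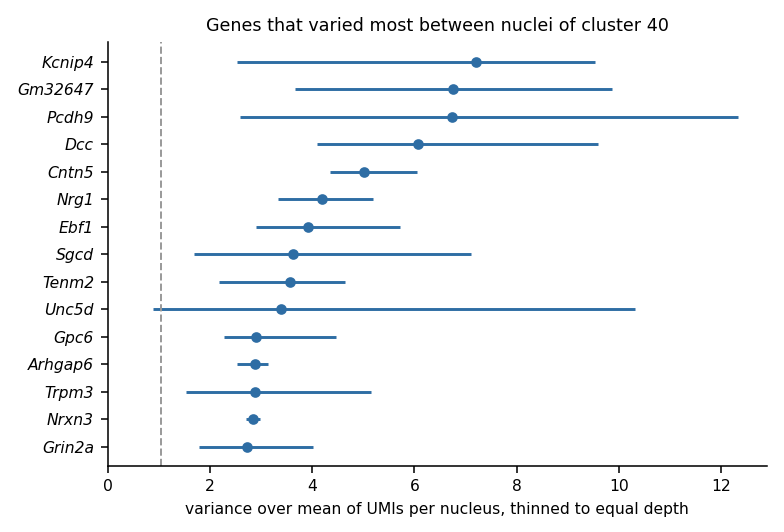
Variance over mean of UMIs per nucleus (horizontal axis, no unit) for the 15 genes that varied most within cluster 40, each nucleus thinned to 2000 UMIs, with the mean over 4 libraries as points and the lowest and highest library as lines. The dashed line is the median of 3596 genes at 1.04, and all 15 means lie at 2.73 or above, while the lowest library of Unc5d falls under the dashed line. The ratio was not adjusted for the level of a gene.

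The share of neurons in cluster 40 did not separate the groups. It was 1.17% and 2.05% in control replicates 1 and 2 and 0.893% and 1.43% in AgRP-Gq;POMC-Gi replicates 1 and 2, with exact binomial intervals of 0.788 to 1.68%, 1.55 to 2.65%, 0.615 to 1.25% and 1.07 to 1.87%. The groups overlapped, and in each the library numbered 2 held the larger share. The means were 1.61 ± 0.617% and 1.16 ± 0.380% (SD, n = 2 each), with an exact two-sided permutation p of 0.667, where the smallest p possible is 0.333. In the edgeR quasi-likelihood test over 134 neuronal clusters the log2 fold change was -0.47 (SE 0.53, Benjamini-Hochberg adjusted p 0.794). Relative to all kept nuclei the shares were 0.298%, 0.557%, 0.339% and 0.522% in the same order, and the log2 fold change was 0.01. A different number of other cells cannot be told apart from a different number of these.

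Within cluster 40 no gene passed the test for a difference between the 2 genotypes. With the edgeR quasi-likelihood test on summed UMIs and Benjamini-Hochberg adjustment, 0 of 11501 genes were called at an adjusted p under 0.05 (0%), the smallest adjusted p was 0.99, and DESeq2 called 0 as well. At an unadjusted p under 0.05 there were 439 genes (3.82%) in edgeR, 201 higher and 238 lower in AgRP-Gq;POMC-Gi, and 29 in DESeq2. The test of whether the group difference in cluster 40 differed from that in other neurons also called 0 genes (0%), with a smallest adjusted p of 0.138 and 451 genes at an unadjusted p under 0.05, and DESeq2 called 0.

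The genes with the smallest p included both muscarinic acetylcholine receptors of the cluster, which are given here as values since neither passed in the unpaired edgeR test. Chrm3, a Gq-coupled receptor, was at 240.5 and 145 CPM in control replicates 1 and 2 and at 82.7 and 65.1 CPM in AgRP-Gq;POMC-Gi replicates 1 and 2 (log2 fold change -1.34, SE 0.30, edgeR adjusted p 0.99). Chrm2, a Gi-coupled receptor, was at 244 and 224 CPM and at 90.9 and 132 CPM (-0.98, SE 0.23, edgeR adjusted p 0.99). The groups did not overlap for either gene, as for 18.5% of all genes tested in that direction and 14.9% in the other. In other neurons the log2 fold changes of Chrm3 and Chrm2 were 0.11 and 0.03, and the difference from other neurons was -1.39 (edgeR adjusted p 0.138) and -0.99 (0.350). UMIs of Chrm3 came from 47 nuclei, the 3 highest of which held 29.9% of 194 UMIs. Leaving out any 1 library kept the sign for both genes and called neither between groups. It did change the counts elsewhere, in fits where 1 group has a single library that is assumed to vary like the other group. Without AgRP-Gq;POMC-Gi replicate 1, Meis2 and Xist were called between groups, and without AgRP-Gq;POMC-Gi replicate 2, Malat1 was. The test against other neurons called 1 gene without control replicate 1, 6 without control replicate 2, then 6 and 3 when AgRP-Gq;POMC-Gi replicate 1 or 2 was dropped, and Chrm3 and Meis2 were in both sets of 6.

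Of the other genes among the 12 smallest p, 2 encode potassium channel subunits. The delayed rectifier subunit Kcnb2 was at 404 and 500.2 CPM in the controls and at 273 and 247 CPM with AgRP-Gq;POMC-Gi (log2 fold change -0.79, SE 0.19), and Kcnh5, an EAG channel, at 233.5 and 236 CPM and at 145 and 124 CPM (-0.80, SE 0.22). Neither was called between groups (edgeR adjusted p 0.99 for both) or for the difference from other neurons (0.138 for both), but both were called for the latter without a filter on low genes and when AgRP-Gq;POMC-Gi replicate 1 was dropped. Meis2, a homeodomain factor, was at 143 and 56.0 CPM and at 37.2 and 2.17 CPM (-2.59, SE 0.68). That difference became -5.21 when AgRP-Gq;POMC-Gi replicate 1 was dropped and -1.19 when replicate 2 of that group was. Its 80 UMIs came from 17 nuclei, 4 of them in control replicate 1 with 41 UMIs, and the 3 highest nuclei held 52.5% of all. Of these 17 nuclei, 12 had a UMI of Ebf2 and 13 one of Slc17a6. Of the 8 with at least 3 UMIs of Meis2, 4 had a UMI of Ebf2, against 141 of the other 162 nuclei. Without a filter on low genes, 5 genes were called between groups, among them Meis2 and Chrm3 (edgeR adjusted p 5.2e-05 and 0.00526). The others were Cpne4, Malat1 and Ttr. Ttr ranged from 0 to 1103 CPM within the control group and from 4.13 to 594 CPM within the AgRP-Gq;POMC-Gi group. A call in this fit therefore does not require that the groups separate. Thsd7b (log2 fold change -0.89), Slc35f4 (-0.78), 9530026P05Rik (-0.94), Vstm2l (-1.32), Psmb4 (-2.34) and Pigq (-2.05) were lower in both AgRP-Gq;POMC-Gi libraries than in both controls without passing. Zfp622 was the 1 gene of the 12 with a higher level, from 0 and 2 UMIs in the controls to 3 and 16 with AgRP-Gq;POMC-Gi.

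No gene that defines the cluster was called between groups. The log2 fold changes were 0.02 for Ebf2, -0.02 for Ankfn1, -0.25 for Ebf1, 0.14 for Ebf3 and 0.32 for Slc17a6. Ebf1 was among the 6 genes called for a difference unlike that in other neurons without AgRP-Gq;POMC-Gi replicate 1, and its difference from other neurons with all libraries was -0.50 (edgeR adjusted p 0.996). Of the 18 markers none was called and their median log2 fold change was 0.10, against -0.0048 over all genes tested. Over the fixed lists the count of called genes was 0 throughout, and the median log2 fold change was -0.42 for 11 neuropeptide genes tested, -0.19 for 21 receptors of feeding and hypothalamic signals, -0.39 for 16 amine and acetylcholine receptors, -0.04 for 22 glutamate receptors, 0.03 for 17 GABA and glycine receptors, 0.01 for 38 potassium and HCN channels, 0.15 for 25 sodium and calcium channels, -0.03 for 21 cadherins, 0.09 for 31 guidance genes, 0.05 for 9 Hox genes -0.16 for 11 calcium-binding proteins and -0.0013 for 24 lineage factors. Among the 6 sex-linked genes the groups overlapped in every case, and the 4 genes of the Y chromosome, Ddx3y, Uty, Eif2s3y and Kdm5d, gave their highest UMI counts in AgRP-Gq;POMC-Gi replicate 2, the library without Xist.

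Immediate early genes have transcripts that rise within minutes to hours of neuronal firing, and none of those tested was called between groups. The study ranked clusters by 10 of them, found here in 0.588% (Gem) to 42.9% (Homer1) of nuclei. These 10 summed to 154 to 272 CPM by library, against 153 to 193 CPM in other neurons. Of these, 6 passed the 5% minimum, and their median log2 fold change in AgRP-Gq;POMC-Gi against control was 0.35. The SD between libraries after group means were removed was 0.585, taken on log2 CPM with a pseudocount and not on fold changes. That SD does not allow for the group means taken out, so it understates the spread. All 6 missed the edgeR threshold. Homer1, a scaffold of postsynaptic receptors, was at 69.7 and 85.0 CPM in the controls and at 62.0 and 99.8 CPM with AgRP-Gq;POMC-Gi. Btg1, an antiproliferative gene, was at 27.9 and 27.0 CPM and at 41.3 and 39.0 CPM (log2 fold change 0.57, SE 0.41). It was the 1 of the 6 whose groups did not overlap, and 14.9% of all genes tested lay higher without overlap. Nr4a1, a nuclear receptor, was at 20.9 and 7.72 CPM and at 16.5 and 32.5 CPM (log2 fold change 1.08, SE 0.60), which with 1 library left out ran from 0.37 (control replicate 2 left out) to 1.78 (control replicate 1 left out) and was 0.47 when AgRP-Gq;POMC-Gi replicate 2 was dropped. Of its nuclei with a UMI, 12 of 24 were in AgRP-Gq;POMC-Gi replicate 2. When nuclei were modelled one by one with glmmTMB, with negative binomial counts and the library as a random effect, the log2 fold change was 1.18 (SE 0.64) for Nr4a1, 0.52 (SE 0.43) for Btg1, 0.81 (SE 1.00) for Jun, -0.54 (SE 1.05) for Junb, 0.10 (SE 0.30) for Homer1 and -0.19 (SE 0.91) for 1700016P03Rik, with adjusted p from 0.393 to 0.839. Fos fell under the 5% minimum. It gave 12 UMIs in 3 nuclei of control replicate 1, 8 of them in a single nucleus, none in control replicate 2 or AgRP-Gq;POMC-Gi replicate 1, and 9 UMIs in 5 nuclei of AgRP-Gq;POMC-Gi replicate 2. Fosl2, Nr4a3 and Gem gave at most 5 UMIs in a library.

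**Figure D5:**
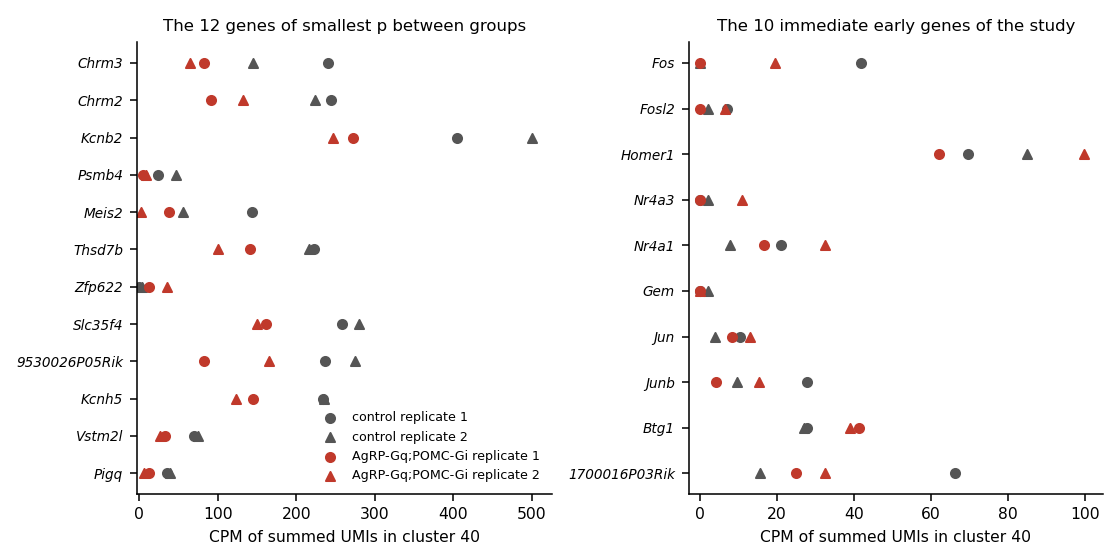
Level in cluster 40 (horizontal axis, CPM of summed UMIs) by library, control grey and AgRP-Gq;POMC-Gi red, circles replicate 1 and triangles replicate 2, for the 12 genes of smallest p between groups on the left and the 10 immediate early genes of the study on the right. On the left the colours separate for all 12 genes, which choosing them by p favours, and none passed adjustment over 11501 genes. Control is higher for 11 of them. Of the 439 genes at an unadjusted p under 0.05, 201 were higher and 238 lower in AgRP-Gq;POMC-Gi, and the direction was not tested. Over all genes tested, 14.9% lay higher and 18.5% lower in AgRP-Gq;POMC-Gi without overlap. On the right the colours separate for Btg1 alone.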

How the data were processed

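Nuclei were counted by the authors as UMIs per gene on GRCm38, and the deposited count matrices with their table of clusters were used as given. The submitters' processing notes name Cell Ranger 7.0.0 and Seurat 4.3.0, and how the counting treated strand is not given in the sources used here. No other per-sample column was left unused (0 columns). Kept nuclei and cluster names were the authors', whose methods name scDblFinder for doublets, and no doublet caller was run in addition. UMIs were summed per library and cluster, so the library was the replicate. Differences between groups were tested with the quasi-likelihood test of edgeR 4.0.16 (R 4.3.3, TMM, Benjamini-Hochberg adjustment at 0.05) for genes detected in 5% or more of nuclei, with DESeq2 1.42.0 and glmmTMB 1.1.9 as alternatives. Scripts were tested on simulated data. Cluster against other neurons is a description, since the clusters rest on expression. The genes named were markers at least 4-fold higher in each library, the 10 lowest genes, the 12 smallest p, the 15 most variable genes, those most alike, those that differ most from the 3 most alike clusters, and for the lists the most abundant or most different. The members and lists were chosen with earlier results of these data known. With 2 libraries a group, p-values measure only the spread between these libraries, and intervals cover counting error only.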

Additional observations from a re-analysis of the deposited data

How the results depend on the processing

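Between groups, 0 genes were called in edgeR, with or without TMM factors and with a stricter filter on low genes, and 0 in DESeq2, but there were 5 without a filter on low genes (Chrm3, Cpne4, Malat1, Meis2 and Ttr) and 0 to 2 when 1 library was left out. With the replicate number as a block there were 11, namely 9530026P05Rik, Chrm2, Chrm3, Gm32647, Kcnb2, Malat1, Meis2, Sorcs1, Tsix, Ttr and Xist. In that fit the edgeR adjusted p was 0.00293 for Chrm3 and 0.0349 for Chrm2. No source used here says that the numbers pair the samples, and deviations of same-numbered libraries correlated at 0.0273 over 11501 genes. Such a correlation cannot decide the point, since a difference shared by few genes hardly moves it. Ttr had 0 and 1 UMIs in the libraries numbered 1 and 571 and 274 in those numbered 2. Xist was higher in the library numbered 1 of each group. Whether the numbers mark a batch was not tested. The difference from other neurons gave 6 genes without the filter (Chrm3, Cpne4, Kcnb2, Kcnh5, Meis2 and Sorcs1) and 1 to 6 when 1 library was left out. The log2 fold change in abundance was 0.01, so of the other sign, with all kept nuclei as the base, -0.457 with the block, and -0.851 to -0.016 with 1 library left out. The count of markers was 11 with equal weight per nucleus and 8 against other glutamatergic clusters, and the log2 ratio of Slc17a6 to Slc32a1 was 2.98 after thinning. The sign turned without control replicate 1 for Junb (0.25, range with 1 library left out -1.82 to 0.25) and 1700016P03Rik (0.96, range -1.13 to 0.96), and without AgRP-Gq;POMC-Gi replicate 2 for Homer1 (-0.25, range -0.25 to 0.34). With 1 library left out, the log2 fold change ran from -5.21 to -1.19 for Meis2, 0.37 to 1.78 for Nr4a1, 0.13 to 1.52 for Jun, 2.27 to 6.16 for Zfp622, -1.54 to -0.64 for 9530026P05Rik and -1.13 to -0.55 for Thsd7b. The median change of the immediate early genes ran from 0.107 to 0.778 with 1 library left out. In each case the cause was not tested. Of 163 values of 18 named genes under alternatives, 152 kept their direction and side of the threshold.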

Other observations

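Agrp, the gene that drives Cre in this study, was counted in the cluster at 73.8 CPM and in 45.9% of nuclei, against 88.2 CPM and 50.9% in other neurons. The gene model counted overlaps Ripor1 over 16965 bases, Gm38250 over 11412 bases and Ctcf over 826 bases on the opposite strand, and Gm5914 over 13058 bases on the same strand.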
